A study of Mus musculus with 8 samples.

Results

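The cell cycle and proliferation genes described here are 38 mouse genes chosen by symbol from the 55401 genes of the deposited expression table. They comprise 10 genes of S phase, 20 genes of mitosis, and 8 G1 cyclins and their kinases, and every symbol was found. Expression was measured by sequencing of rRNA-depleted total RNA from 8 hypothalami of mice at postnatal day 19. The control group, 4 libraries called Veh, received vehicle by gavage from postnatal day 9 to day 15. The other 4 libraries, called PLX, came from pups gavaged over the same days with PLX3397, an inhibitor of the CSF1 receptor kinase on which microglia depend. Each group held 2 females (F1, F2) and 2 males (M1, M2). The sample labels give the tissue as brain and the design text as hypothalamus, and neither names a strain, a litter or a dose. The question for these genes was whether transcripts of dividing cells differed between the groups after the gavage had ended.

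A cell enters division when D-type cyclins activate Cdk4 and Cdk6, which phosphorylate the RB protein and release E2F transcription factors. E2F then switches on the genes of DNA replication, including the MCM helicase and the enzymes that make nucleotides, and a later programme driven by the MuvB complex, B-Myb and Foxm1 switches on mitotic cyclins, kinases and spindle proteins. In the postnatal hypothalamus most neurons no longer divide, and the cells known to divide include oligodendrocyte precursors, microglia, tanycytes and vascular cells. The mRNA level in bulk tissue does not measure division itself, and a lower level can come from fewer cells of a type or from less RNA per cell, which cannot be told apart here.

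Depth was similar in the groups, at 54115300 to 60001808 counts per vehicle library and 55900335 to 67487391 per PLX3397 library. A gene with 0 counts could then be present at up to 0.0451 to 0.0557 CPM (counts scaled to library size), the level of 3 counts, which covers counting error only. The summed level of 10 microglial markers was 277 to 288 CPM in vehicle and 23.4 to 47.3 CPM in PLX3397 libraries, and 7 of the 10 fell, with C1qa and Fcrls at 0 counts in PLX3397 M2. Markers of oligodendrocyte precursors summed to 1309 to 1601 and 874 to 945 CPM, and 6 of their 10 genes fell. All 10 hypothalamic marker genes passed the expression filter. Vehicle F1 held 2652 CPM of the pituitary hormone transcript Gh, against at most 0.866 CPM in the other 7 libraries.

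No cell cycle gene passed the test in either direction. With edgeR's quasi-likelihood test adjusted for sex, over the 16894 genes with a mean of at least 0.5 FPKM (fragments scaled to transcript length and library size), 0 of the 23 members that met that level were called at a Benjamini-Hochberg adjusted p of 0.05, where 2.14% of all tested genes were. The other 15 members lay under 0.5 FPKM, and 13 of these are mitotic genes. A wider filter, edgeR's filterByExpr, tested 23163 genes including all 38 members, and again called 0 of 38, against 1.55% of all genes. At an unadjusted edgeR p under 0.05 there were 3 members, Mcm3, Mcm7 and Cdk2, under both filters, which is 3 of 23 beside 16.2% of all tested genes and 3 of 38 beside 13.7%. DESeq2, which called 6.49% of all genes under the first filter, also called 0 of 23, and 0 of 38 under the wider one, where it called 8.45% of all genes. Mcm7 was the 1 member whose groups did not overlap, while 11.2% of all genes at or above 0.5 FPKM had groups of 4 that did not overlap.

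The estimated differences leaned to the lower side in PLX3397 libraries. Under the wider filter 30 of 38 members had a log2 fold change below 0, or 78.9%, where 50.9% of all tested genes did. Their median was -0.22 on the log2 scale, against -0.00 for all tested genes. These genes share libraries, so the 38 signs are not independent. The count was 25 of 38 without vehicle F1 and 26 of 38 without PLX3397 F2.

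**Figure D1:**
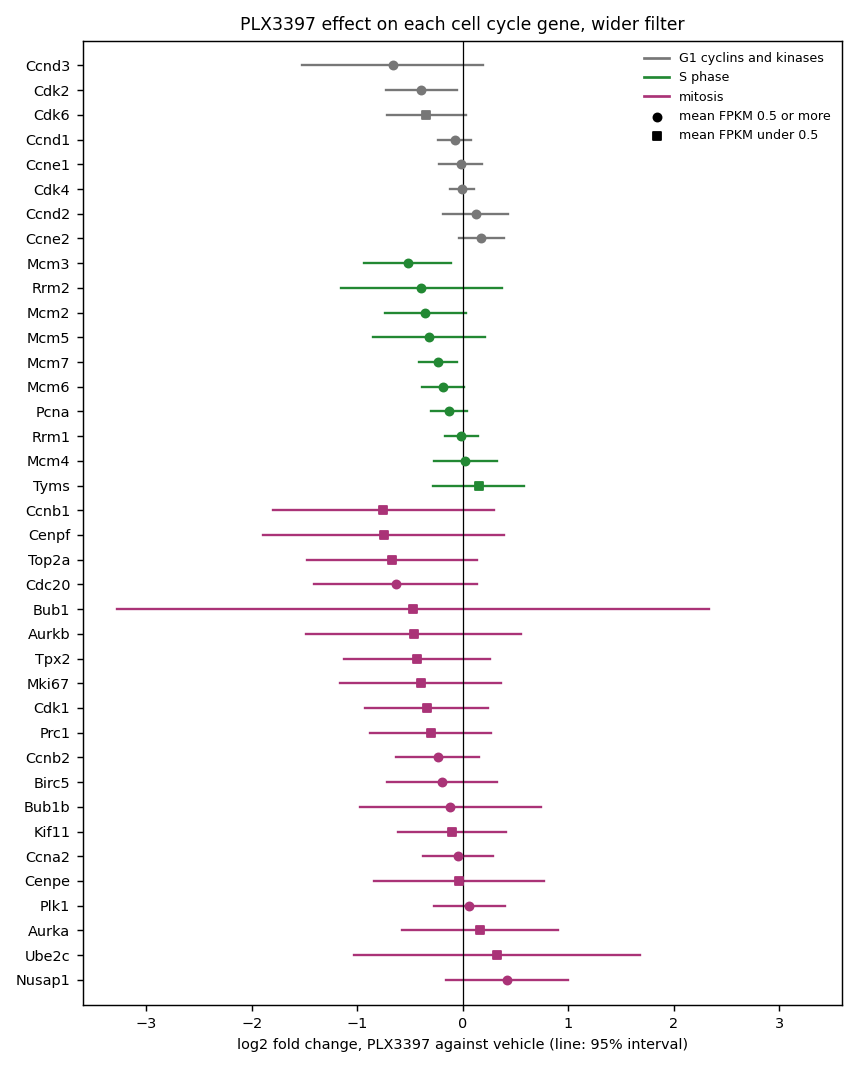
Log2 fold change of each of the 38 genes, PLX3397 against vehicle, from edgeR under the wider filter (x axis), with 95% intervals as lines. Circles are genes with a mean of at least 0.5 FPKM and squares are genes below it, coloured by phase; 30 of 38 points lie below 0 and the Bub1 interval, from -3.28 to 2.33, is the widest.

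Levels per transcript length differed widely among the members in vehicle hypothalamus. Cdk4, the kinase partner of the D cyclins, was the highest at 14.99 ± 0.447 FPKM (SD, n = 4), ahead of Pcna, the sliding clamp of the replication fork, at 10.8 ± 1.08 FPKM. Ccnd1 followed at 9.26 ± 0.600 FPKM and Ccnd2 at 4.28 ± 1.22 FPKM. At the other end stood the mitotic genes Aurkb at 0.148 ± 0.0589, Cenpf at 0.104 ± 0.0329, Cenpe at 0.0918 ± 0.0141 and Bub1 at 0.0784 ± 0.0935 FPKM. The median level was 2.86 FPKM for the G1 genes, 1.24 for the S phase genes and 0.425 for the mitotic genes. In this order 33 of 37 neighbouring pairs had overlapping vehicle libraries, and the steps without overlap came after Cdk4, Ccnd1, Mcm4 and Ccne2. The spread between vehicle libraries went the other way: the median coefficient of variation was 10.1% for G1, 16.4% for S phase and 29.5% for mitotic genes.

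**Figure D2:**
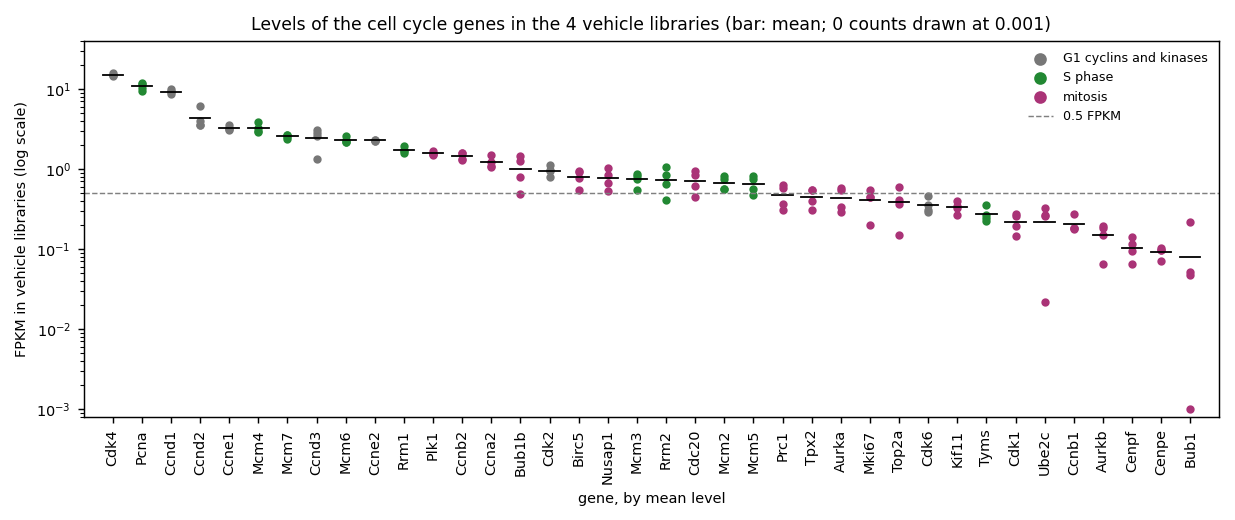
FPKM of the 38 genes in the 4 vehicle libraries (y axis, log scale), ordered by mean level, with points for libraries and bars for means. The dashed line at 0.5 FPKM is the expression filter, under which 13 of the 20 mitotic genes fall on their mean over all 8 libraries; a count of 0 is drawn at 0.001.

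Among the S phase genes, the 6 subunits of the MCM helicase, which unwinds DNA at the replication fork, had a median log2 fold change of -0.28, and 0 of 6 were called. Mcm7 (chr5:138164583-138172422, minus strand, mm10) was measured at 12.7, 12.1, 13.4 and 13.6 CPM in vehicle F1, F2, M1 and M2, and at 10.5, 11.3, 10.2 and 11.7 CPM in PLX3397 F1, F2, M1 and M2. Every vehicle library was above every PLX3397 library, by a narrow margin. The means were 12.9 ± 0.660 and 10.9 ± 0.688 CPM (SD, n = 4 each), a log2 fold change of -0.24 ± 0.08 (SE; 95% interval -0.42 to -0.06) with an edgeR adjusted p of 0.186. The Mcm7 locus overlaps Cops6, Ap4m1 and the microRNA genes Mir25 and Mir106b, so reads there could be shared among them. The same limit holds for 11 of the 38 members, which overlap another gene with a mean of at least 0.5 FPKM. Besides Mcm7 these are Ccnd1, Ccnd2, Ccnd3, Ccne2, Cdk4, Ccna2, Plk1, Cdc20, Kif11 and Prc1.

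Mcm3 (chr1:20802968-20820312, minus strand) stood at 3.71, 3.27, 2.34 and 3.50 CPM in the vehicle libraries, in the same order, and at 2.24, 1.98, 2.28 and 2.37 CPM in the PLX3397 libraries. Vehicle M1 lay among the PLX3397 values, and the other vehicle libraries lay above them. Its log2 fold change was -0.53 ± 0.18 (SE; 95% interval -0.95 to -0.10) with an edgeR adjusted p of 0.216. Mcm2 read 6.52, 4.47, 6.05 and 4.56 CPM in vehicle and 3.74, 3.82, 4.72 and 4.59 CPM in PLX3397 libraries. Vehicle F1 and M1 were high, and vehicle F2 and M2 were within the PLX3397 range, with a log2 fold change of -0.36 ± 0.17 and an edgeR adjusted p of 0.3505. Of the remaining subunits Mcm4, Mcm5 and Mcm6, the log2 fold changes were 0.02, -0.33 and -0.19, with edgeR adjusted p-values from 0.328 to 0.961. PLX3397 M2 was the high library for Mcm5, at 3.20 CPM beside 2.03 to 2.21 CPM in the other PLX3397 libraries.

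The promoters of Mcm3 and Mcm7 are shown because these 2 genes had the smallest p-values of the S phase members. Each runs from 250 bases before to 50 bases after a RefSeq start (GRCm38.p6), 5′ to 3′ on the gene's strand. Capitals mark E2F sites (TTTCCCGC, TTTCGCGC, TTTGCCGC or TTTGGCGC), the cell cycle genes homology region or CHR (TTTGAA or TTCGAA) and CCAAT boxes, on either strand, and neighbouring motifs can share bases. Mcm3 lies at chr1:20820263-20820562 and the second of the Mcm7 starts at chr5:138171834-138172133, both on the minus strand.
Mcm3: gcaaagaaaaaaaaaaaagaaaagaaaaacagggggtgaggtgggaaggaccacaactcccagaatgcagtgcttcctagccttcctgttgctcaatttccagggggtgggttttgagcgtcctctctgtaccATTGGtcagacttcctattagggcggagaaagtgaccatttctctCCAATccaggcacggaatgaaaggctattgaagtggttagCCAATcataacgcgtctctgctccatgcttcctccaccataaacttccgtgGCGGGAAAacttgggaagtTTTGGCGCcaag
Mcm7: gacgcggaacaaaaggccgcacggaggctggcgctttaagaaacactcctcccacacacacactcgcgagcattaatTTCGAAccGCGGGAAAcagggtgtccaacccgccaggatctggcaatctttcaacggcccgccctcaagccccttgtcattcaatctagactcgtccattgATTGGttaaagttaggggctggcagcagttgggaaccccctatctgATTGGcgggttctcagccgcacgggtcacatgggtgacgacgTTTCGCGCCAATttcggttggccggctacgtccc
The Mcm3 window holds 2 E2F sites, both downstream of the start, and 3 CCAAT boxes, with no CHR. The Mcm7 window holds 2 E2F sites, 1 CHR and 3 CCAAT boxes, and the site nearest the start shares bases with a CCAAT box. The other Mcm7 start in the table, with the window chr5:138171217-138171516, has 0 E2F sites, 0 CHR motifs and 1 CCAAT box, and a gene was counted as holding a motif when any of its windows did. Promoters in the RefSeq table matched 31 of 38 members, with Ccnd1, Ccnd2, Ccne2, Mcm4, Ccna2, Aurkb and Tpx2 unmatched. An E2F site was found for 4 of 9 S phase genes, 1 of 17 mitotic genes and 1 of 5 G1 genes, and for 2.6% of the 27025 genes in the table. The matches describe letters in a window, and no binding was measured.

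Of the 4 genes of DNA synthesis, 0 were called. Pcna was at 25.7, 28.3, 32.2 and 32.0 CPM in vehicle and 27.8, 23.8, 27.0 and 28.9 CPM in PLX3397 libraries, so the groups overlapped, with a log2 fold change of -0.13 ± 0.07 (SE; 95% interval -0.30 to 0.04; edgeR adjusted p 0.426). Rrm2, the small subunit of ribonucleotide reductase, which supplies deoxynucleotides, ranged more widely, at 2.01, 1.31, 3.36 and 2.71 CPM in vehicle and 2.23, 1.94, 1.31 and 1.48 CPM in PLX3397 libraries. Both vehicle males were above every other library. Its log2 fold change over both sexes was -0.40 ± 0.33 with an edgeR adjusted p of 0.614. Rrm1, the large subunit, had a log2 fold change of -0.02, and Tyms, thymidylate synthase, which lay under the expression filter, had 0.15 under the wider filter. Over all 10 S phase genes under the wider filter the median was -0.21, with 8 values below 0, and 9 of 10 of their 95% intervals lay within 1 log2 unit of 0.

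The G1 genes had the highest median level and the lowest median coefficient of variation in vehicle. Their median log2 fold change was -0.05 over all 8 under the wider filter. Cdk4 was at 57.3, 55.0, 54.4 and 56.1 CPM in vehicle and 53.2, 52.9, 58.3 and 56.5 CPM in PLX3397 libraries. The groups overlapped, and the 95% interval of the log2 fold change ran from -0.12 to 0.10 around -0.01. Ccnd1, the D cyclin with the highest level per length, was at 53.1, 50.5, 46.1 and 49.5 CPM in vehicle and 45.4, 44.3, 50.7 and 47.6 CPM in PLX3397 libraries. Its groups overlapped too, with a log2 fold change of -0.08 ± 0.07 and a 95% interval of -0.24 to 0.07 (edgeR adjusted p 0.595).

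Ccnd2 was highest in vehicle F1, at 64.6 CPM, and was 43.2, 38.1 and 38.02 CPM in vehicle F2, M1 and M2 and 56.8, 48.0, 47.2 and 44.7 CPM in the PLX3397 libraries. Apart from vehicle F1, every vehicle library was below every PLX3397 library. The log2 fold change was 0.12 ± 0.14 over all 8 libraries (edgeR adjusted p 0.732). Ccnd3 (chr17:47505051-47599689, plus strand) took high and low values in both groups. It was at 30.4, 26.3, 28.1 and 13.6 CPM in vehicle and at 12.3, 10.97, 12.2 and 27.7 CPM in PLX3397 libraries. Vehicle M2 was low and PLX3397 M2 was high, each unlike the rest of its group, and no library lay between 13.6 and 26.3 CPM. The log2 fold change was -0.67 ± 0.38 (SE; 95% interval -1.55 to 0.21; edgeR adjusted p 0.439), and it was -1.07 without PLX3397 M2 (edgeR adjusted p 0.153).

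Cdk2, the kinase of cyclin E and cyclin A, was at 6.86, 6.74, 8.03 and 5.65 CPM in vehicle and 4.86, 4.87, 6.20 and 4.81 CPM in PLX3397 libraries. PLX3397 M1 reached into the vehicle range and the other PLX3397 libraries lay below it. The log2 fold change was -0.40 ± 0.15 (SE; 95% interval -0.74 to -0.06; edgeR adjusted p 0.241). Cdk6, under the expression filter, was at 7.33, 4.90, 4.60 and 5.70 CPM in vehicle and 4.27, 4.54, 4.77 and 4.01 CPM in PLX3397 libraries, where vehicle F1 was the highest and vehicle M1 lay in the PLX3397 range. Under the wider filter its log2 fold change was -0.34 ± 0.16 with an edgeR adjusted p of 0.405. The E cyclins, which drive entry into S phase, had log2 fold changes of -0.03 for Ccne1 and 0.17 for Ccne2, with edgeR adjusted p-values of 0.920 and 0.419.

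**Figure D3:**
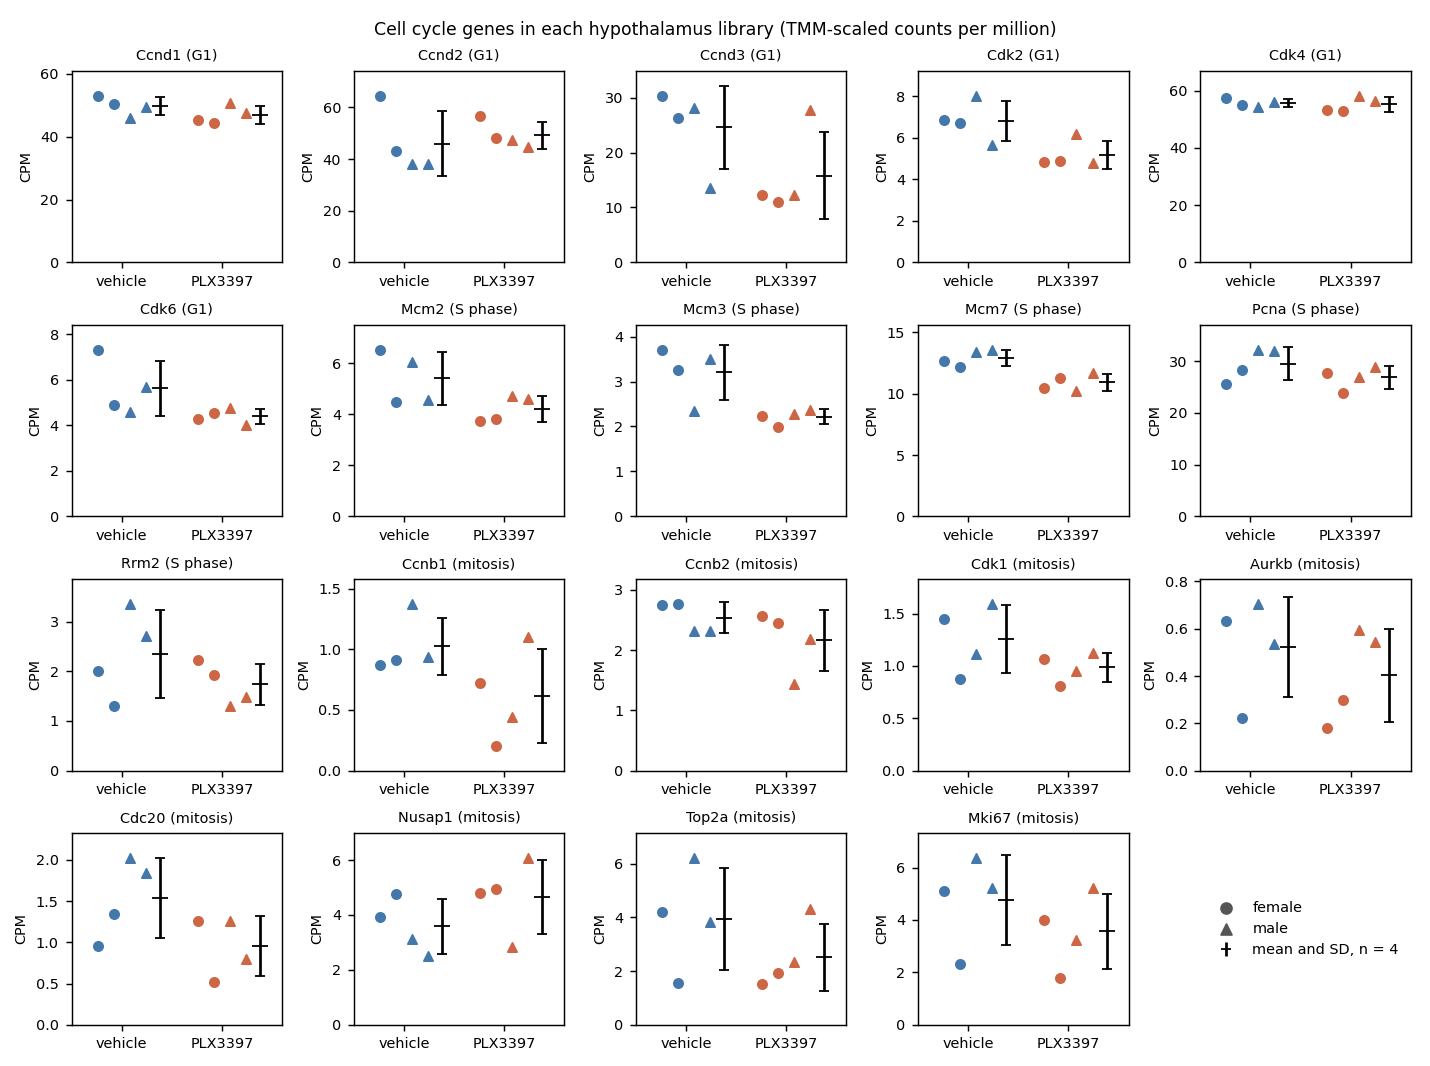
TMM-scaled CPM (y axis, from 0) of 19 named members in each library, with circles for females, triangles for males, and mean and SD (n = 4) beside each group. The groups overlap in every panel except Mcm7, and Ccnd3 shows 1 vehicle library low and 1 PLX3397 library high.

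By their medians, mitotic genes were the scarcest and most variable in vehicle. Under the wider filter 0 of 20 were called, with a median log2 fold change of -0.27 and 16 values below 0. Cdk1, the kinase that starts mitosis, was at 1.45, 0.877, 1.11 and 1.59 CPM in vehicle and 1.07, 0.812, 0.951 and 1.12 CPM in PLX3397 libraries. The groups overlapped, at 51 to 95 counts a library, with a log2 fold change of -0.34 ± 0.25 (SE; 95% interval -0.92 to 0.24; edgeR adjusted p 0.624). Its partner Ccnb1 was at 0.871, 0.911, 1.37 and 0.938 CPM in vehicle and 0.722, 0.203, 0.442 and 1.102 CPM in PLX3397 libraries. PLX3397 F2, at 13 counts, was the lowest and PLX3397 M2 was above 3 of the 4 vehicle libraries, with a log2 fold change of -0.75 ± 0.45 (edgeR adjusted p 0.533). Ccnb2, the other B cyclin, was at 2.75, 2.77, 2.32 and 2.31 CPM and at 2.57, 2.45, 1.44 and 2.19 CPM, where PLX3397 M1 was low, and had a log2 fold change of -0.24 ± 0.17 (edgeR adjusted p 0.541). Ccna2, which acts in S phase and early mitosis, had a log2 fold change of -0.05.

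Mki67, which codes for the proliferation antigen Ki-67 on mitotic chromosomes, was at 5.11, 2.32, 6.36 and 5.23 CPM in vehicle and 4.01, 1.79, 3.24 and 5.22 CPM in PLX3397 libraries. Vehicle F2 and PLX3397 F2 were the lowest of their groups, and PLX3397 M2 was level with vehicle M2. Under the wider filter the log2 fold change was -0.40 ± 0.33 (SE; 95% interval -1.16 to 0.37; edgeR adjusted p 0.673). Top2a, the topoisomerase that untangles sister chromatids, was at 4.20, 1.56, 6.22 and 3.84 CPM in vehicle and 1.504, 1.92, 2.33 and 4.30 CPM in PLX3397 libraries. Again vehicle F2 sat with the low PLX3397 libraries and PLX3397 M2 with the high vehicle ones. The log2 fold change was -0.67 ± 0.35 (SE; 95% interval -1.47 to 0.14; edgeR adjusted p 0.456), and it was -0.32 without vehicle F1 and -0.89 without PLX3397 M2.

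The promoters of Cdk1 and Top2a, 2 of the mitotic members, are shown with the same motifs in capitals and on the same build. Cdk1 lies at chr10:69352863-69353162 and Top2a at chr11:99024140-99024439, both on the minus strand.
Cdk1: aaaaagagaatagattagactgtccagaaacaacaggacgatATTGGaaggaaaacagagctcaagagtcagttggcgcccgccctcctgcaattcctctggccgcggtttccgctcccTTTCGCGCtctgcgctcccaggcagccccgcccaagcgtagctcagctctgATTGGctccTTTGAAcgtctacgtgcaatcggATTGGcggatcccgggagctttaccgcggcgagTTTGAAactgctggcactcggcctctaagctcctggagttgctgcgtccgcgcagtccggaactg
Top2a: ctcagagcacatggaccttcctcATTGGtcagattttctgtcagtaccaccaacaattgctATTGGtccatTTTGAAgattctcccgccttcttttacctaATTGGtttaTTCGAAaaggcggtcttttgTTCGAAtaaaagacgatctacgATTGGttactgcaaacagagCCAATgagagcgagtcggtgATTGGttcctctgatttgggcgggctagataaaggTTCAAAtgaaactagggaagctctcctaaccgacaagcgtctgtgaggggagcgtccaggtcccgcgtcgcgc
Cdk1 holds 1 E2F site, 2 CHR motifs and 3 CCAAT boxes, and Top2a holds 4 CHR motifs and 6 CCAAT boxes with no E2F site. They are not typical of the list. Of the 17 mitotic genes with a promoter, Cdk1 is the 1 with an E2F site, and Top2a holds the most CHR motifs. A CHR was found for 13 of 17 mitotic genes, 2 of 9 S phase genes and 0 of 5 G1 genes, beside 21.7% of all genes in the table. CCAAT was found for 15 of 17, 8 of 9 and 2 of 5, beside 41.1% of all genes. Over promoters of this length rather than genes, the shares were 2.26% for E2F, 19.2% for CHR and 37.4% for CCAAT.

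Of the mitotic kinases and checkpoint genes, Cdc20, the activator of the anaphase-promoting complex, was at 0.956, 1.34, 2.02 and 1.84 CPM in vehicle and 1.26, 0.515, 1.26 and 0.795 CPM in PLX3397 libraries. Vehicle F2, M1 and M2 were above every PLX3397 library and vehicle F1 was within the PLX3397 range. The log2 fold change was -0.64 ± 0.33 (edgeR adjusted p 0.399), and Cdc20 overlaps the expressed gene Elovl1. Aurkb, the kinase of the chromosomal passenger complex, was at 0.632, 0.223, 0.705 and 0.536 CPM in vehicle and 0.180, 0.297, 0.594 and 0.542 CPM in PLX3397 libraries. It rested on 12 to 38 counts a library, and the log2 fold change was -0.46 ± 0.44 (edgeR adjusted p 0.720). The values for Birc5, Bub1b and Plk1 were -0.20, -0.13 and 0.06 on the log2 scale, and under the wider filter those for Aurka and Ube2c were 0.16 and 0.33. Bub1, a spindle checkpoint kinase, had 0 to 59 counts, with 0 in vehicle F2 and PLX3397 F1, and its 95% interval spanned -3.28 to 2.33.

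Nusap1, which binds spindle microtubules, was the spindle gene above the expression filter, at 3.91, 4.78, 3.14 and 2.50 CPM in vehicle and 4.81, 4.95, 2.84 and 6.07 CPM in PLX3397 libraries. PLX3397 M1 lay within the vehicle range and the other PLX3397 libraries were above it, with a log2 fold change of 0.41 ± 0.25 (edgeR adjusted p 0.484). For the other 7 genes of the spindle, kinetochore and chromosome list, the log2 fold changes under the wider filter were below 0, from -0.03 for the kinetochore motor Cenpe to -0.75 for the kinetochore protein Cenpf. The spindle motor Kif11, the spindle assembly factor Tpx2 and the midzone protein Prc1 had -0.10, -0.43 and -0.30.

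Set side by side, S phase and mitotic genes had close medians under the wider filter, at -0.21 and -0.27 on the log2 scale, but unequal precision. The median half-width of the 95% interval was 0.34 for S phase, 0.75 for mitotic and 0.26 for G1 genes, and 9 of 10, 11 of 20 and 7 of 8 intervals lay within 1 log2 unit of 0. No test was made of the difference between the phases. Under the 0.5 FPKM filter the medians were -0.24 over 9 S phase genes, -0.13 over 7 mitotic genes and -0.03 over 7 G1 genes. The mitotic median depended on single libraries: it was 0.02 over those 7 genes without vehicle M1, and over all 20 it was -0.12 without vehicle F1, -0.17 without vehicle M1 and -0.37 without vehicle F2.

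Summed over the 10 S phase genes, the level was 101, 97.3, 114 and 111 CPM in vehicle and 98.0, 88.7, 99.3 and 99.6 CPM in PLX3397 libraries. Both vehicle males were above every PLX3397 library, and vehicle F2 was below 3 of them. The 20 mitotic genes summed to 55.8, 40.1, 62.9 and 47.7 CPM in vehicle and 45.7, 40.1, 41.5 and 54.4 CPM in PLX3397 libraries, with F2 lowest in both groups. The 8 G1 genes summed to 239, 206, 198 and 188 CPM in vehicle and 197, 185, 200 and 205 CPM in PLX3397 libraries. Group means were 106 ± 7.82 and 96.4 ± 5.18 CPM for S phase, 51.6 ± 9.86 and 45.4 ± 6.44 CPM for mitosis, and 208 ± 22.4 and 197 ± 8.28 CPM for G1 (SD, n = 4), so each pair of groups overlapped. Single libraries recurred across genes: PLX3397 F2 was the lowest library for 17 of 38 members, 9 of them mitotic, and vehicle M1 was the highest for 15, 10 of them mitotic. Vehicle F1, the library with the high Gh level, was the highest for 10, and 5 of those are G1 genes.

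**Figure D4:**
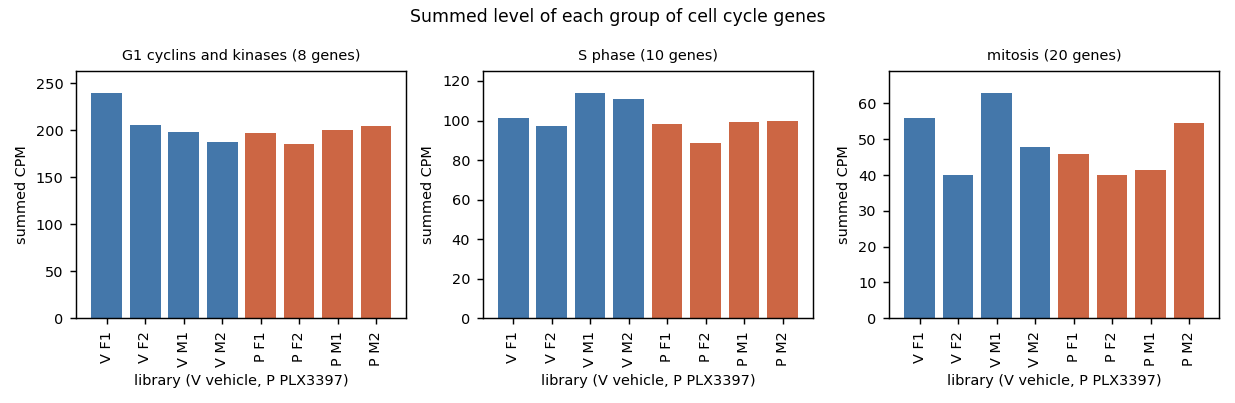
Summed CPM (y axis, from 0) of the 8 G1, 10 S phase and 20 mitotic genes in each library (x axis; V vehicle in blue, P PLX3397 in orange). The mitotic sum runs from 40.1 to 62.9 CPM in vehicle and 40.1 to 54.4 CPM in PLX3397 libraries.

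The effect of PLX3397 was next compared between females and males, with 2 libraries in each arm. The difference of the effects was called by edgeR for 0 of 23 members and, under the wider filter, for 0 of 38, beside 0.077% and 0.0475% of all tested genes, and 1 member had an unadjusted p under 0.05 in each. That is 1 of 23 beside 6.01% of all genes and 1 of 38 beside 5.7%, so the members did not stand above the background. The member was Rrm2, with a log2 fold change of 0.32 in females and -1.12 in males, a difference of 1.45 ± 0.40 (SE) and an edgeR adjusted p of 0.721. In females PLX3397 libraries read 2.23 and 1.94 CPM beside 2.01 and 1.31 CPM in vehicle, and in males 1.31 and 1.48 beside 3.36 and 2.71. Next by p-value were Ccnd1, with -0.21 in females and 0.04 in males (edgeR adjusted p of the difference 0.819), and Ccnd3, with -1.28 and -0.06 (0.8291). Within each sex under the wider filter edgeR called 0 of 38 members, beside 0.255% of all genes in females and 1.14% in males. Unadjusted p-values under 0.05 were found for Ccnd1, Ccnd3 and Mcm3 in females, 3 of 38 beside 8.6% of all genes, and for Mcm7 and Rrm2 in males, 2 of 38 beside 11.9%.

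By edgeR, other genes of the cell cycle gave the same count of calls. Of 7 CDK inhibitors, which hold cells out of division, 4 met the 0.5 FPKM filter, and of 20 RB, E2F and mitotic transcription factors 14 did. The tested numbers were 26 of 36 origin and fork factors, 12 of 39 further mitotic genes and 10 of 65 replication-dependent histones. In each of these lists edgeR called 0 genes in either direction, under that filter and under the wider one. DESeq2, which called 8.45% of all genes under the wider filter, is not given for these lists. Over all genes the shares at an unadjusted edgeR p under 0.05 were 16.2% and 13.7%. At that unadjusted edgeR p there were 1 of 4, 3 of 14, 4 of 26, 2 of 12 and 1 of 10 genes under the first filter. Under the wider one there were 2 of 7, 6 of 20, 5 of 36, 6 of 39 and 1 of 31. The medians under the wider filter were -0.26, -0.12, -0.03, -0.16 and -0.22 on the log2 scale, in the same order.

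E2f2, an activating E2F, was at 4.47, 4.59, 3.43 and 3.94 CPM in vehicle and 3.19, 3.18, 2.80 and 2.30 CPM in PLX3397 libraries. All vehicle libraries were above all PLX3397 libraries, with a log2 fold change of -0.52 ± 0.13 and an edgeR adjusted p of 0.0992. In the same list Tfdp1, the E2F partner, Rb1 and E2f3 had -0.14, -0.22 and -0.11. Cdkn1c, the CDK inhibitor p57, was at 9.43, 7.65, 9.13 and 9.32 CPM in vehicle and 6.54, 6.79, 6.81 and 7.18 CPM in PLX3397 libraries, also without overlap, with a log2 fold change of -0.38 ± 0.10 and an edgeR adjusted p of 0.111. E2f2 and Cdkn1c were named for the smallest edgeR p of their lists, so their separated groups are no further support. Groups of 4 did not overlap for 11.2% of all genes at or above 0.5 FPKM. Cdkn1a, Cdkn2d and Cdkn1b had log2 fold changes of 0.16, -0.26 and -0.12. Among origin and fork factors Orc4 and Orc5, of the origin recognition complex, had 0.22 and 0.21, while Rpa3 and Rfc4, of the single-strand binding and clamp-loading complexes, had -0.43 and -0.63, with edgeR adjusted p-values from 0.185 to 0.272.

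Of the further mitotic genes, Cdc25b and Wee1, which remove and add the inhibitory phosphate on Cdk1, had log2 fold changes of -0.28 and 0.17, and Racgap1 and Bub3 had -0.28 and -0.08. The smallest adjusted p-value of any listed cell cycle gene under the wider filter belonged to Espl1, separase, which cuts cohesin at anaphase. It was at 2.05, 2.05, 2.21 and 1.89 CPM in vehicle and 1.14, 1.17, 0.849 and 1.17 CPM in PLX3397 libraries, where the groups were well apart. Espl1 was picked by its p-value, so this separation is no further support. The log2 fold change was -0.91 ± 0.18 with an edgeR adjusted p of 0.0599. E2f8, an E2F repressor induced in S phase, was at 1.52, 1.99, 2.84 and 2.06 CPM in vehicle and at 0.331, 0, 0 and 0.542 CPM in PLX3397 libraries. Its log2 fold change was -3.27 ± 1.02 (SE), with an edgeR adjusted p of 0.207 under the wider filter. Under that filter Tfdp2, from the list of E2f8, and the CDK inhibitor Cdkn2c had log2 fold changes of -0.87 and -1.03. Their edgeR adjusted p-values were 0.205 and 0.186. The histone genes H2bc4, H2bc21 and H3c14 had log2 fold changes of -0.22, -0.20 and 0.67, and H2ac18 had counts only in vehicle F1 and M2, at 6.35 and 3.92 CPM; these are near-identical copies whose reads may be split among them.

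Marker lists of other cell types were read in the same libraries. Beside the microglial and oligodendrocyte precursor sums given above, markers of newly formed and myelinating oligodendrocytes summed to 6289 to 9540 CPM in vehicle and 2101 to 4737 CPM in PLX3397 libraries. Of these, 7 of 10 fell, or 6 of 10 under the wider filter. Within the precursor list Gpr17, a gene of committed precursors, went from 377 ± 55.3 to 64.6 ± 18.5 CPM, the largest difference in CPM of the list. Its members Pdgfra, Cspg4, Ptprz1 and Cspg5 were not called, with log2 fold changes of -0.21, -0.28, 0.04 and -0.01 and edgeR adjusted p-values from 0.182 to 0.905. Markers of neural progenitors and young neurons summed to 773 to 807 and 742 to 824 CPM, with 1 of 8 tested genes, Sox4, lower at an edgeR adjusted p of 0.0394. Tanycyte and ependymal markers summed to 121 to 147 and 119 to 151 CPM with 0 of 8 called. Astrocyte markers summed to 2570 to 3126 and 2746 to 2888 CPM, also with 0 of 8 called. Endothelial and mural markers summed to 226 to 292 and 217 to 253 CPM, with a median log2 fold change of -0.23 and 1 of 8 called, Flt1, which rose (edgeR adjusted p 0.0464, and 0.0577 under the wider filter). Blood markers summed to 35.0 to 206 and 28.5 to 62.7 CPM, and the 4 that were tested, all haemoglobin genes, had a median of -1.55 with 0 called. Meningeal fibroblast markers summed to 255 to 357 and 357 to 506 CPM, and 3 of 8 rose, or 2 of 8 under the wider filter. The part of these cell types in the levels of the 38 genes was not tested.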

How the data were processed

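The deposited table holds, per gene and library, raw read counts and FPKM made by the authors. The submitters' processing notes name HISAT2, StringTie, bcl2fastq 2.0, DESeq2, limma and mm10 with no roles, and neither the counting program nor the strand setting is given in the sources used here. A gene with 0 counts has a deposited FPKM of 0.0001. Per the labels' protocols, rRNA was removed from total RNA with probes and cDNA was made with random primers. FPKM served for the expression filter and for levels between genes, and CPM are counts scaled by TMM library size.

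Differences were tested on the counts with edgeR 4.0.16 in R 4.3.3 (TMM, quasi-likelihood F-test, two-sided, sex as covariate, all 8 libraries) and adjusted by Benjamini-Hochberg over all tested genes. Sex differences came from a model with 4 group means. The scripts were tested on simulated data. DESeq2 1.42.0, limma 3.58.1 (on log2 FPKM), other scalings, other filters, a replicate block and leaving out libraries were alternatives. The wider filter was combined with other alternatives after seeing the data, because 15 of 38 members missed the 0.5 FPKM filter.

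The members and lists were chosen with earlier results of these data known. Values in every library are given for 11 members named at the start and for the 2 with the smallest unadjusted p in each of 6 lists, ranked under the wider filter. Up to 4 genes by p were named from each pathway list under the 0.5 FPKM filter. Espl1, E2f8, Tfdp2 and Cdkn2c were added from the wider filter. The histone list was extended to newer symbols once the table's names were seen, and the promoters printed were chosen after the values were seen. Libraries of a group differed by more than sampling noise, with chi-square per degree of freedom from 40.1 to 67.5. Sequences come from RefSeq.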

Additional observations from a re-analysis of the deposited data

Results flagged for a closer look

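In each group of 4 libraries, a library was singled out when its gap to the nearest other library, divided by the whole range, was above Dixon's 95% critical value for 4 values. This was done for 76 groups (38 genes in vehicle and in PLX3397), where chance singles out about 1 in 20, and 4 were found. Ccnd3 in PLX3397 M2 was at 27.7 CPM, beside 10.97 to 12.3 CPM in the other PLX3397 libraries. Mcm5 in the same library was at 3.20 CPM, beside 2.03 to 2.21 CPM. Cdk2 in PLX3397 M1 was at 6.20 CPM, beside 4.81 to 4.87 CPM. Ccnb1 in vehicle M1 was at 1.37 CPM, beside 0.871 to 0.938 CPM in the other vehicle libraries.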

How the results depend on the processing

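The count of members called was 0 for PLX3397 against vehicle and 0 for its sex difference in every alternative run, with the lowest adjusted p of any member at 0.0584 (DESeq2 with the wider filter). Leaving out each library in turn, both counts stayed at 0. Over the members above 0.5 FPKM the median log2 fold change then ranged from -0.27 to -0.19 for S phase, -0.26 to 0.02 for mitotic and -0.07 to 0.01 for G1 genes. Over all members under the wider filter it ranged from -0.22 to -0.17, -0.37 to -0.12 and -0.09 to -0.01. The sign of 2 named genes changed: Cdk4, from -0.0343 (without vehicle M1) to 0.0164 (without vehicle F1) with single libraries left out, was at 0.0021 without PLX3397 F2 and 0.0172 without vehicle F1 and PLX3397 M2, and Aurkb was at 0.0166 without those 2 libraries under the wider filter. The other 366 of 370 values for 19 named genes kept their sign and stayed above the threshold of 0.05. A replicate block called 0 members for the treatment and 0 for the sex difference, and 79 of all genes in place of 362. Same-numbered libraries deviated together only weakly (correlations 0.041 to 0.087 over 16894 genes). Even so, 6 of 8 libraries correlated best with the library of their own sex and number in the other group. The deviations were taken from the treatment mean over both sexes, so sex enters these matches. The labels do not say that the numbers mark pairs, and the main test did not use them as pairs. Whether same-numbered libraries share a factor was not tested. The DESeq2 alternative called 1097 of all genes. The 95% intervals of the mitotic genes had a median half-width of 0.75 on the log2 scale, and the part of depth in this width was not tested.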

Other observations

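After its values were seen, Ccnd3 was compared with 7351 other genes with a mean of at least 0.5 FPKM and a highest library at least 1.5 times the lowest, by correlation of log2(CPM + 0.5) over the 8 libraries. The gene most like it was Pwwp2a, at 22.4, 21.7, 21.8 and 12.2 CPM in vehicle F1, F2, M1 and M2 and at 12.9, 11.9, 12.9 and 19.9 CPM in the PLX3397 libraries. As with Ccnd3, vehicle M2 was low and PLX3397 M2 high.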
